A study of Homo sapiens with 8 samples.

Results

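The plasminogen activator system was followed through 7 of its genes in the human glioblastoma line U87, on 8 expression arrays. They are PLAU, PLAUR, PLAT, SERPINE2, SERPINB2, ANXA2 and S100A10, chosen as named members of the system and found on the array through the RefSeq transcript each probe was designed on. All 7 were measured, by 9 probes, among 19483 genes named on the array, of which 14805 were tested. The siRND3 cells were transfected with siRNA against RND3, also called RhoE, an atypical small GTPase that stays bound to GTP and is known to oppose ROCK1, and the siControl cells with non-silencing oligos. There were 3 siControl and 3 siRND3 arrays at 24 h after transfection, and 1 array of each at 48 h. All cells shared the line, the reverse transfection with Lipofectamine RNAiMAX and the medium. A pair of oligos was used against RND3 and the sources do not tie them to arrays, and no source used here says whether replicates were separate transfections, so p-values measure the spread between these arrays, which may be technical.

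Plasminogen is a secreted zymogen that is cut into plasmin, a broad protease that degrades fibrin and matrix proteins and activates other proteases. PLAU (urokinase, uPA) and PLAT (tissue-type activator, tPA) make that cut, and PLAU does so at the cell surface when bound to its lipid-anchored receptor, the product of PLAUR. SERPINE2 (protease nexin-1) and SERPINB2 (PAI-2) inhibit the activators, while ANXA2 and S100A10 (p11) form a complex that holds plasminogen and PLAT at the cell surface. In glioblastoma the system is best known for its part in invasion of the surrounding tissue.

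PLAU mRNA fell at 24 h and was lower again at 48 h, the largest difference among the 7 genes at both times. At 24 h PLAU was the member that passed the test. At 48 h PLAUR, SERPINB2 and S100A10 were lower and PLAT was higher as well, while SERPINE2 and ANXA2 did not pass at either time.

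The start regions of the 3 members with the deepest falls at 48 h are shown because these genes moved in the same direction. RefSeq promoter windows of assembly GRCh38.p14 were at hand for 6 of the 7 members, 8 windows in all, and the 250 bases before each start were searched on both strands for 4 short motifs, overlapping matches included. The motifs were AP-1 (TGANTCA), the TATA box (TATAAA), the GC box (GGGCGG) and a TEAD motif (GGAATG), and the capitals below mark their matches. The PLAU window is that of its downstream start, the PLAUR window is on the minus strand and the other windows shown are on the plus strand.
PLAU, chr10:73910882-73911131: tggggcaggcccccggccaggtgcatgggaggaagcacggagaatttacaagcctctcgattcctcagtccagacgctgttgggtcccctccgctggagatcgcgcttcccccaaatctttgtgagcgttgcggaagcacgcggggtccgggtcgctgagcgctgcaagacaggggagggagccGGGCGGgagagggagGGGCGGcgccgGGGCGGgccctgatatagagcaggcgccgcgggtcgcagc
PLAUR, chr19:43670170-43670419: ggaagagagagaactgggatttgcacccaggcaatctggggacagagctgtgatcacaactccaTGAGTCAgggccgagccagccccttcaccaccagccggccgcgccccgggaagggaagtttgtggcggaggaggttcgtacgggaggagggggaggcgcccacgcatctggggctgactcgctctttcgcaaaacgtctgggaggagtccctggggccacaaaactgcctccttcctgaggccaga
SERPINB2, chr18:63887455-63887704: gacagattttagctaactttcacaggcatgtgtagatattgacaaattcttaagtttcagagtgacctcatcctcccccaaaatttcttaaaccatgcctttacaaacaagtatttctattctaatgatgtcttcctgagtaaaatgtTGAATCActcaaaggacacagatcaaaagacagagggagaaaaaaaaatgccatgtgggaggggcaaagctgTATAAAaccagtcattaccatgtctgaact

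The PLAU window held 3 GC boxes and none of the other motifs, and the window of the upstream PLAU start held none of the 4. An AP-1 match lay 186 bases before the PLAUR start and another 102 bases before the SERPINB2 start, and SERPINB2 also had a TATA box 30 bases before its start. AP-1 matches were found in 3 of the 8 member windows, the third being that of ANXA2, a gene that did not pass the test at 24 h or 48 h. Of 35116 windows of the same length, 6.57% held the AP-1 letters, 42.6% the GC box and 11.9% the TEAD motif, which no member window held, and 3763 held the TATA box. A match describes the letters only, and no binding was measured here.

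Values are log2 of the background-corrected intensity after quantile normalisation, so a difference of 1 is a 2-fold change. Levels are compared between arrays for the same probe and not between probes. All 9 member probes were well above background on all 8 arrays, as was the probe of RND3, and no spot was saturated. All arrays lay on 1 slide, with the siRND3 arrays in row 1 and the siControl arrays in row 2, so the row and the treatment cannot be told apart. The 24 h arrays lay in columns 1 to 3 and the 48 h arrays in column 4, so the column and the time cannot be told apart either. Per array, 68.3% to 70.7% of 42405 probes passed the scanner software's test for signal well above background. Of 7 glioma and astroglial markers, VIM, NES, CD44, FN1 and SLC1A3 were well above background, GFAP was on no array and S100B on 1. CD44 and SLC1A3 were lower at both times, and FN1 was lower at 48 h. NES was higher at both times on 1 of its 2 tested probes. The other NES probe was at 0.23 and 0.37 (limma adjusted p = 0.196 and 0.201). On the NES probe that passed, siControl cells read 9.57 to 9.61 at 24 h and 7.53 at 48 h. The siRND3 cells read 9.82 to 10.16 at 24 h and 9.62 at 48 h. The summed intensity of the 5 tested glioma and astroglial markers came mostly from VIM and CD44. At 24 h it was 223617 to 237352 on the siControl arrays and 188732 to 217153 on the siRND3 arrays. At 48 h it was 223246 in siControl and 157575 in siRND3 cells. Of 11 markers of other cell types (leukocyte, endothelial, epithelial, oligodendrocyte and neuronal) 7 were tested. At 24 h PECAM1 was lower on 1 of its 2 tested probes and no other marker passed. At 48 h PECAM1 was lower on both and CD68 was higher. The summed intensity of these 7 came mostly from CD68. Its mean log2 value at 24 h was 12.22 in siControl and 12.42 in siRND3 cells. CDH5, the next highest, was at 7.07 and 7.38. The sum was 5040 to 5328 on the siControl arrays and 5513 to 6490 on the siRND3 arrays at 24 h. At 48 h it was 4504 in siControl and 7209 in siRND3 cells. CDH1, KRT5 and RBFOX3 were above background on no array. The part of either marker list in the results was not tested.

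RND3 itself (probe A_23_P142849) read 11.88, 11.91 and 11.90 on the siControl arrays at 24 h and 10.12, 10.18 and 10.42 on the siRND3 arrays, so the groups were far apart. The difference was -1.66 (SE 0.10, limma adjusted p = 0.000345), which left 31.7% of the siControl level. At 48 h RND3 read 11.48 in siControl and 9.84 in siRND3 cells, a difference of -1.65. The RND3 difference was therefore of the same size at both times, and its change between them was 0.01 with a 95% interval of -0.45 to 0.46.

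**Figure D1:**
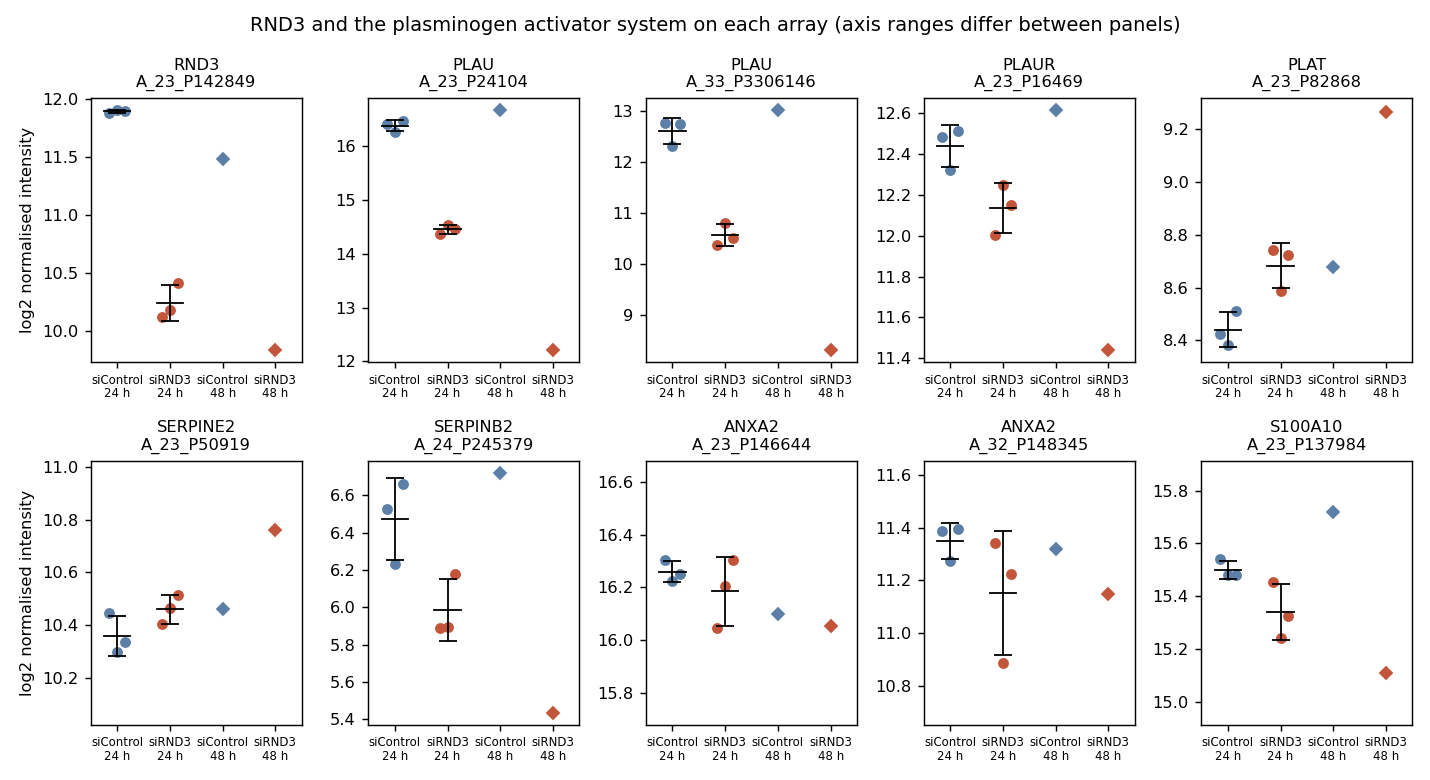
Log2 normalised intensity (y axis, a different range in each panel) of RND3 and the 9 member probes on each array, by group on the x axis, with circles for arrays at 24 h, diamonds for those at 48 h and black bars for the mean and SD of 3 arrays. PLAU falls from 16.4 in siControl to 14.5 in siRND3 cells at 24 h and to 12.2 at 48 h, while the ANXA2 points of both treatments overlap.

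PLAU, the first of the activators, was read by a pair of probes. The first (A_23_P24104) was printed as 10 spots on each array, whose SD within an array was 0.028 to 0.052. It read 16.42, 16.27 and 16.46 on the siControl arrays at 24 h and 14.37, 14.54 and 14.45 on the siRND3 arrays. The highest siRND3 array was below the lowest siControl array, with a gap far wider than the spread within either group (SD 0.10 and 0.08, n = 3 each). The difference was -1.93 (SE 0.09, limma adjusted p = 0.000166), which left 26.3% of the siControl level, and the probe ranked 63rd from the lowest of the 28759 tested. The second probe (A_33_P3306146), with 1 spot per array, read 12.78, 12.32 and 12.75 in siControl and 10.38, 10.80 and 10.52 in siRND3 cells. Its difference was -2.05 (SE 0.16, adjusted p = 0.000931), so both probes gave a fall of about the same size.

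At 48 h the first PLAU probe read 16.67 in siControl and 12.21 in siRND3 cells, and the second read 13.03 and 8.31. The siRND3 array at 48 h was lower than any array at 24 h, whereas the siControl array at 48 h was higher than any. The differences were -4.46 (SE 0.15, adjusted p = 0.00013) and -4.71 (SE 0.28, adjusted p = 0.000353), a 22.0-fold and a 26.3-fold lower signal. They ranked 9th and 8th from the lowest among the 28759 probes. With 1 array per treatment at 48 h, these tests assume that the single arrays vary like those at 24 h.

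The knockdown effect on PLAU was larger at 48 h than at 24 h, by -2.54 (95% interval -2.95 to -2.12, adjusted p = 0.00887) for the first probe and -2.66 (-3.45 to -1.88, adjusted p = 0.0245) for the second. PLAU was the single member that passed this test of the difference, in which 2.56% of all genes tested were called with a more negative effect at 48 h. Without siControl replicate 1 both probes missed the threshold (adjusted p = 0.0559 and 0.0680). The second probe also missed it without siControl replicate 2 (adjusted p = 0.0585) or 3 (adjusted p = 0.0722), while its size stayed between -2.52 and -2.74 in those 3 fits. In order of level, siControl cells at 48 h were highest for PLAU, followed by siControl at 24 h, siRND3 at 24 h and siRND3 at 48 h. The siControl difference between the times did not pass (0.29, adjusted p = 0.236 for the first probe), and it rests on a single array at 48 h. Each step below the siControl levels passed the test, as PLAU fell by 1.93 at 24 h and, within siRND3 cells, fell by 2.24 from 24 h to 48 h (adjusted p = 0.00181).

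PLAT, the other activator, read 8.43, 8.38 and 8.51 on the siControl arrays at 24 h and 8.74, 8.59 and 8.72 on the siRND3 arrays. The siRND3 arrays were all above the siControl arrays, yet the difference of 0.24 (SE 0.08) did not pass the adjustment (adjusted p = 0.106). A joint model of all 8 arrays gave PLAT a treatment effect over both times that passed (0.33, adjusted p = 0.0454). That effect includes the 48 h arrays, so it is not a test at 24 h. At 48 h PLAT read 8.68 in siControl and 9.26 in siRND3 cells. The difference of 0.59 (SE 0.14, adjusted p = 0.0302) put it at 150.2% of siControl, the opposite direction to PLAU. Without siControl replicate 1, 2 or 3 this call was lost (adjusted p = 0.0642, 0.0559 and 0.0591). The difference stayed at 0.59 in those fits, since it uses only the arrays at 48 h. The siRND3 array at 48 h was the highest for PLAT, and the siControl array at 48 h lay within the range of the siRND3 arrays at 24 h.

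PLAUR, the PLAU receptor, read 12.48, 12.32 and 12.51 in siControl and 12.004, 12.25 and 12.15 in siRND3 cells at 24 h. The groups did not overlap, but by a narrow margin, and the difference of -0.31 (SE 0.10) did not pass (adjusted p = 0.0954). Under normexp background correction it did (-0.30, adjusted p = 0.0460). At 48 h PLAUR read 12.62 in siControl and 11.44 in siRND3 cells, and thus fell by 1.18 (SE 0.17, adjusted p = 0.00492) to 44.2% of the siControl level. The change of the effect between the times, -0.87, did not pass (95% interval -1.34 to -0.41, adjusted p = 0.0742), but it did with normexp (-0.85, adjusted p = 0.0268) and with the authors' deposited values (-0.86, adjusted p = 0.0439). For PLAUR too the siControl array at 48 h was the highest and the siRND3 array at 48 h the lowest of the 8.

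SERPINB2, an inhibitor of PLAU and PLAT, was lower at 48 h. It read 6.52, 6.23 and 6.66 on the siControl arrays at 24 h and 5.89, 5.89 and 6.18 on the siRND3 arrays. The groups did not overlap, although the highest siRND3 array lay close to the lowest siControl array. The difference of -0.49 (SE 0.14) did not pass (adjusted p = 0.0721). SERPINB2 did pass at 24 h with normexp (-0.30, adjusted p = 0.0396) and with the authors' deposited values (-0.39, adjusted p = 0.0364). It also passed in significance analysis of microarrays (SAM), the methods' own test. In the joint model of all 8 arrays its treatment effect over both times passed (-0.69, adjusted p = 0.0318). At 48 h it read 6.72 in siControl and 5.44 in siRND3 cells, and thus fell by 1.29 (SE 0.24, adjusted p = 0.0132) to 41.0% of siControl. Under normexp the difference at 48 h shrank to -0.66, still past the threshold.

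SERPINE2, the other inhibitor, read 10.45, 10.30 and 10.34 in siControl and 10.40, 10.46 and 10.51 in siRND3 cells at 24 h, with overlapping groups. Its difference was 0.10 (95% interval -0.08 to 0.28, adjusted p = 0.451). At 48 h it read 10.46 and 10.76, a difference of 0.30 (95% interval -0.02 to 0.62, adjusted p = 0.183).

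The plasminogen-binding pair differed from each other at 48 h in whether they passed, a contrast between the genes that was not tested. S100A10 read 15.54, 15.48 and 15.48 in siControl and 15.45, 15.24 and 15.33 in siRND3 cells at 24 h. The groups did not overlap, although the difference of -0.16 (SE 0.08, adjusted p = 0.26) was small. At 48 h it read 15.72 and 15.11, and fell by 0.61 (SE 0.14, adjusted p = 0.0281) to 65.6% of siControl. Without siControl replicate 1, 2 or 3 the call was lost (adjusted p = 0.0578, 0.0572 and 0.0633), while the difference, which uses only the 48 h arrays, was unchanged.

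ANXA2 was read by a pair of probes. The first (A_23_P146644) read 16.30, 16.22 and 16.25 in siControl and 16.05, 16.20 and 16.30 in siRND3 cells at 24 h, so the groups overlapped. The differences of the 2 probes were -0.07 and -0.20 at 24 h (adjusted p = 0.639 and 0.363) and -0.05 and -0.17 at 48 h (adjusted p = 0.905 and 0.703). The first probe's 95% interval at 24 h, -0.29 to 0.14, spans 0. The processed pseudogenes ANXA2P1 and ANXA2P3 resemble ANXA2 closely, so the probes may share signal with them. Their own probes differed by -0.10 and -0.02 at 24 h.

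**Figure D2:**
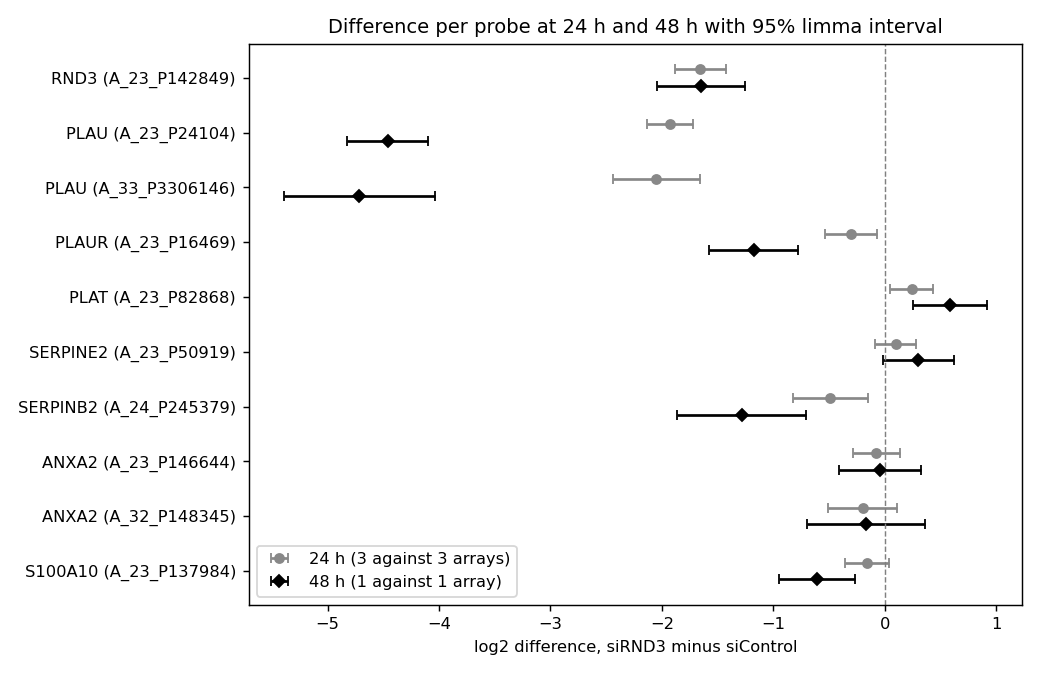
Log2 difference of siRND3 minus siControl (x axis) for RND3 and each member probe (y axis), with circles for 24 h (3 against 3 arrays), diamonds for 48 h (1 against 1 array) and bars for the 95% interval of the limma fit. The PLAU probes stand at -1.93 and -2.05 at 24 h and at -4.46 and -4.71 at 48 h, RND3 at -1.66 and -1.65, and both ANXA2 probes cross 0 at both times.

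Counted over the members, 1 of 7 was lower and none was higher at 24 h, where 9.26% of all genes tested were called lower and 7.16% higher. With an unadjusted p below 0.05 the count at 24 h was 4 of 7 (PLAU, SERPINB2, PLAUR and PLAT), beside 32.9% of all genes tested. At 48 h 4 of 7 were lower, where 13.3% of all genes were called lower, and 1 of 7 was higher, where 14.3% of all genes were. The median member difference was -0.16 at 24 h and -0.61 at 48 h, beside 0.04 and 0.06 over all genes tested. Of the 9 member probes, 6 had groups that did not overlap at 24 h, beside 34.4% of all probes tested. The members and the pathway list below were chosen with earlier results of these data known, so their shares beside all genes are descriptive. The differences at 24 h and 48 h use different arrays, but the tests at 48 h take their spread from the arrays at 24 h. In bulk RNA fewer cells of a kind and less RNA per cell cannot be told apart.

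**Figure D3:**
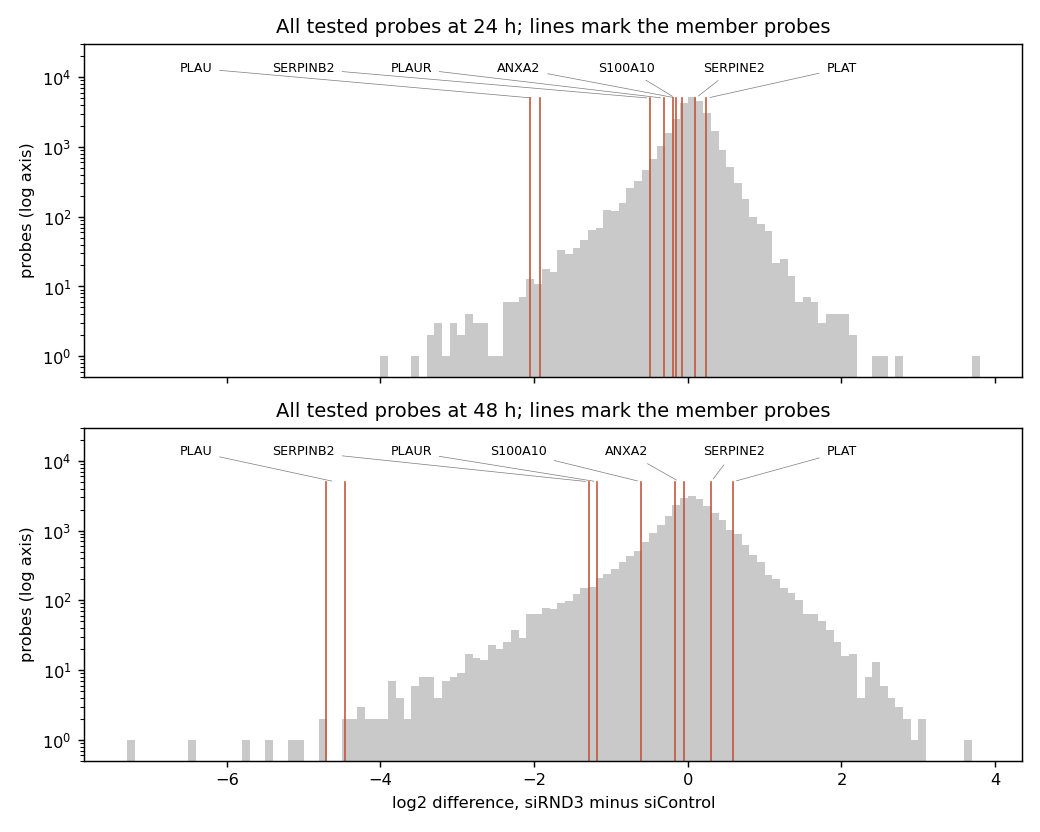
Number of tested probes (y axis, log scale) at each log2 difference of siRND3 minus siControl (x axis) at 24 h above and 48 h below, with red lines at the 9 member probes. The pair of PLAU lines lies in the thin left tail at both times, with the other members between -1.29 and 0.59.

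Time within a treatment gave a further view of the members. In siControl cells none of the 7 passed between 24 h and 48 h, where 5.17% of all genes were called in either direction by limma. None of the 7 had an unadjusted p below 0.05 there either, taking the probe with the highest mean for each gene, beside 23.3% of all genes. The differences ran from -0.16 for ANXA2 to 0.29 for PLAU. In siRND3 cells PLAU and PLAUR were lower at 48 h than at 24 h, where 9.19% of all genes were lower, and PLAT was higher, where 3.61% were. PLAUR fell by 0.69 (adjusted p = 0.0289) and PLAT rose by 0.58 (adjusted p = 0.0283). The call of PLAUR was lost without siControl replicate 1 or 3 or siRND3 replicate 2 or 3 (adjusted p = 0.0619, 0.0591, 0.0524 and 0.0632) and with no filter on dim probes (adjusted p = 0.0502). The call of PLAT was lost without any of the siControl replicates or siRND3 replicate 3 (adjusted p = 0.0653, 0.0580, 0.0607 and 0.0514). The PLAU call held in each fit with an array left out, but not with the replicate number as a block (adjusted p = 0.0518 and 0.0614 for its probes). These time contrasts share their siRND3 and siControl arrays with the comparisons above.

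Around the members stands a list of 27 further genes of the plasmin pathway, of which 21 were tested. At 24 h 1 of the 21 was lower and none was higher, beside 9.26% and 7.16% of all genes. It was F2RL1, which encodes PAR-2, a receptor switched on by protease cleavage. F2RL1 read 9.47, 9.55 and 9.49 in siControl and 7.83, 7.43 and 7.74 in siRND3 cells, well apart, and its difference was -1.84 (SE 0.12, adjusted p = 0.000484). At 48 h it read 9.64 and 6.17, and fell by 3.47 (adjusted p = 0.000339), a signal 11.1-fold lower, where normexp gave -2.49. The change of its effect between the times was -1.63 (adjusted p = 0.0302), a call that was lost without any single siControl replicate (adjusted p = 0.0869, 0.0801 and 0.0852) and without siRND3 replicate 1 or 3 (adjusted p = 0.0506 and 0.0599). With normexp that change was -0.996. The related thrombin receptor F2R differed by -0.11 at 24 h and 0.20 at 48 h, neither of which passed.

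At 48 h 7 of the 21 were lower and none was higher, beside 13.3% and 14.3% of all genes. Those other than F2RL1 were named after their values were seen. F2R, LRP1, VTN, ST14 and PLG are named for their roles. F12, a contact-phase protease, fell by 1.59 (adjusted p = 0.00239), from 7.82 in siControl to 6.24 in siRND3 cells. Its effect at 24 h was -0.15, and the change between the times, -1.44, passed (adjusted p = 0.0317). That change missed the threshold without any single siControl replicate (adjusted p = 0.0911, 0.0777 and 0.0915) and without siRND3 replicate 1 or 2 (adjusted p = 0.0592 and 0.0539). With normexp F12 was at -1.01 at 48 h and its change at -0.88. TFPI2, a Kunitz-type protease inhibitor, fell by 1.18 (adjusted p = 0.00621). SERPINB8, an intracellular serpin, fell by 0.46 (adjusted p = 0.0332). Among receptors and clearance genes, the plasminogen receptor PLGRKT fell by 0.68 (adjusted p = 0.0246), MRC2, a collagen receptor also known as the uPAR-associated protein, fell by 0.71 (adjusted p = 0.0322), and 1 of 2 probes of VLDLR, an endocytic receptor, fell by 0.65 (adjusted p = 0.0189). The other VLDLR probe was at -0.39 (adjusted p = 0.493).

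The median of the list was -0.06 at 24 h and -0.13 at 48 h, beside 0.04 and 0.06 over all genes tested. Without siControl replicate 1, 2 or 3 the count at 48 h was 4, 5 and 4. SERPINB8 and PLGRKT lost their call without any single siControl replicate (highest adjusted p = 0.0823 and 0.0542), and MRC2 without replicate 1 or 3 (adjusted p = 0.0595 and 0.0602) or with no filter on dim probes (adjusted p = 0.0542). The differences of these 3 genes use only the 48 h arrays and were unchanged in those fits. By role, the 7 were 3 of 9 receptors and clearance genes, 2 of 5 inhibitors tested, 1 of 3 zymogens and other activators and 1 of 2 cleaved receptors, and no difference between roles was tested. LRP1, the receptor that clears PLAU bound to its inhibitors, did not pass on either probe, and the matrix partner VTN and the activator ST14 did not pass either. PLG, the gene of plasminogen itself, was well above background on no array.

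**Figure D4:**
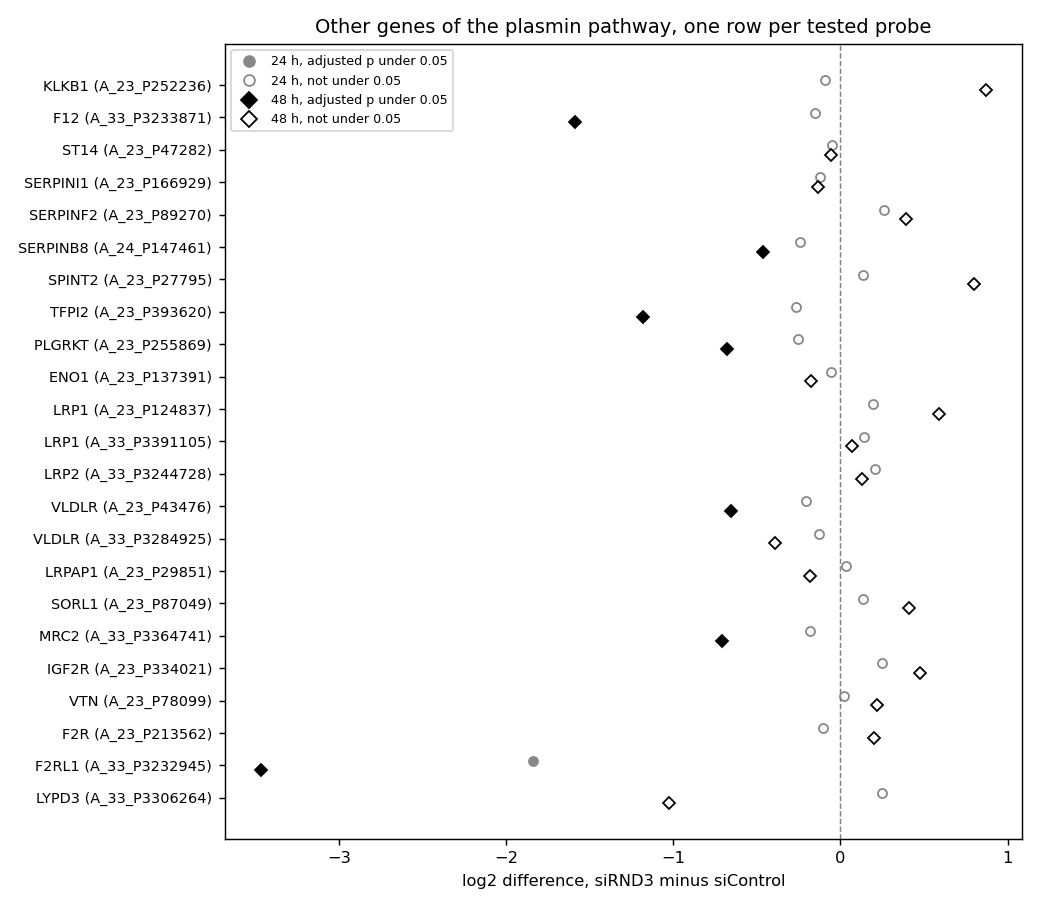
Log2 difference of siRND3 minus siControl (x axis) for each tested probe of the further pathway genes (y axis), with circles for 24 h and diamonds for 48 h, filled where the adjusted p was under 0.05. F2RL1 is filled at both times, at -1.84 and -3.47, and the other filled points are all at 48 h and left of 0.

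The 3 genes whose pattern was nearest to each member were found among 14137 genes by the root mean square distance between centred log2 values over the 8 arrays. PLAU was nearest to ST8SIA5, a sialyltransferase of ganglioside synthesis, with a distance of 0.19 on the log2 scale beside a PLAU range of 4.46. SLC16A6, of the monocarboxylate transporter family, and HAS1, a hyaluronan synthase, followed with 0.23 each. Their differences were -1.66, -1.47 and -1.67 at 24 h, and -4.40, -4.21 and -3.71 at 48 h. PLAUR was nearest to ACTN1 (alpha-actinin), ADIPOR2 and TFRC (the transferrin receptor), at distances of 0.043 to 0.050. SERPINB2 was nearest to PIKFYVE, IL36RN and PDCD4, and PLAT to GFM1, TLR1 and EIF4B.

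SERPINE2 was nearest to SKIC8, OCIAD1 and PCDHB11, and S100A10 to CCZ1, CALM2 and RABGEF1. CCZ1 has a near-identical copy, CCZ1B, so its probe may read both. Of the 21 names over all 7 members, 13 stayed with scaling to the 75th percentile, 9 with normexp and 10 with the authors' deposited values, so the lists depend on the normalisation. The likeness describes these 8 arrays only.

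**Figure D5:**
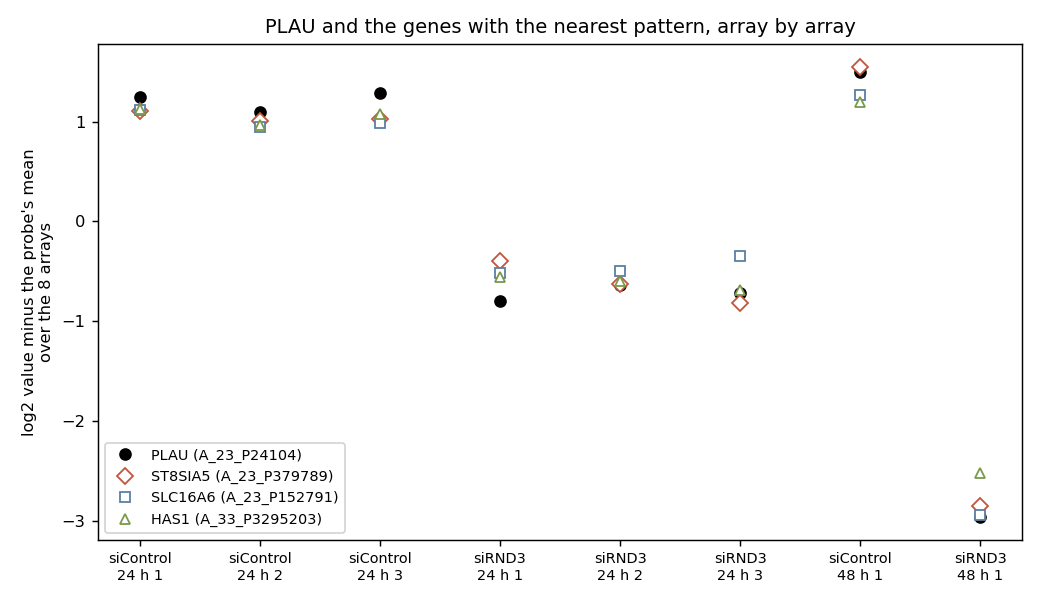
Log2 value minus the probe's mean over the 8 arrays (y axis) for PLAU (black circles) and its 3 nearest genes on each array (x axis, by treatment, time and replicate). All 4 genes lie near 1 or above on the siControl arrays, below 0 on the siRND3 arrays at 24 h and lowest on the siRND3 array at 48 h.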

How the data were processed

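RNA of U87 cells was hybridised to 8 Agilent arrays in 1 colour, grouped by the labels' treatment and time. The authors used a low-input Cy3 labelling kit and Agilent Feature Extraction 10.7.3.1. The deposited processed signal is a linear spot intensity, corrected for background within each array per the file headers. The authors also deposited log2 values, for which quantile normalisation is stated, with the rank order of the spot median signal (lowest Spearman correlation 1).

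Here the processed signals were put on a log2 scale and quantile-normalised over the 8 arrays, without 4259 control spots of 62976. Outlier spots were left out and the spots of a probe averaged. The 28759 probes tested stood well above background in all 3 arrays of a 24 h group, on each array in at least 50% of their spots. Names came from RefSeq transcripts (assembly GRCh38.p14), which matched 25422 of 42405 probes. The array was annotated on another build, so no coordinates are taken from it. A gene was called where at least 1 probe passed and none passed the other way. In medians and unadjusted counts over genes, a gene is given by its probe with the highest mean.

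The 24 h groups were compared with limma 3.58.1 (R 4.3.3) on 6 arrays, with Benjamini-Hochberg adjustment over all probes and a threshold of 0.05. A model with 4 groups on 8 arrays gave the other 4 comparisons, the single 48 h arrays being assumed to vary like those at 24 h. The code was tested on simulated data. The number of arrays limits the precision.

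Named were the 7 members, pathway genes past the threshold at 24 h and the 3 genes nearest to each member. The members and lists were chosen with earlier results of these data known. The nearest genes of ANXA2 and 1 further gene of the pathway list are not reported here. Alternatives were scaling to the 75th percentile, normexp (offset 50), the authors' log2 values, normalisation within the 24 h arrays, other filters, SAM over 20 assignments at a false discovery rate of 5%, a block on the replicate number, time as a term over all 8 arrays, the mean of a gene's probes, and each 24 h array left out in turn.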

Additional observations from a re-analysis of the deposited data

Results flagged for a closer look

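The knockdown effect on PLAU differed between the times by the interaction test of limma, with -2.54 for probe A_23_P24104 (adjusted p = 0.00887) and -2.66 for probe A_33_P3306146 (adjusted p = 0.0245). Both are the log2 effect at 48 h minus that at 24 h, and both probes missed the threshold without siControl replicate 1 (adjusted p = 0.0559 and 0.0680). Of the further pathway genes, F2RL1 differed by -1.63 (adjusted p = 0.0302) and F12 by -1.44 (adjusted p = 0.0317), also between the times. Each of these differences rests on 1 siControl and 1 siRND3 array at 48 h. RND3 itself differed by 0.01 between the times (adjusted p = 0.992).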

How the results depend on the processing

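Over the 9 member probes and RND3 in 5 comparisons, 593 values under an alternative kept their direction and their side of the threshold, 27 lost the call, 8 gained it and 9 changed sign. The PLAU falls at 24 h and 48 h passed on both probes under every alternative run.

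The count of members called at 24 h, 1, became 3 with normexp, 2 with the authors' values and 2 with SAM. For the treatment effect over both times in the model of all 8 arrays the count was 3. At 48 h the 5 members became 3 with the replicate block and 3 to 5 with 1 array at 24 h left out. For the effect at 48 h minus that at 24 h, the 1 member became 2 with normexp, 2 with the authors' values, 0 with the replicate block and 0 to 1 with an array left out, the 0 being without siControl replicate 1. In siRND3 cells between the times, the 3 members became 0 with the replicate block and 1 to 3 with an array left out. The cause of these shifts was not tested.

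Deviations of same-numbered arrays at 24 h correlated at 0.002, -0.012 and 0.13, the last being the highest of any pair. Against that, siControl replicate 2 correlated better with siRND3 replicate 1 (0.11) than with its own number. Same-numbered arrays at 24 h also shared a slide column. The 48 h arrays, numbered 1 and so blocked with the first 24 h arrays, lay in column 4. With so few arrays these correlations cannot decide whether the replicate numbers pair them. Under the block both PLAU probes had an adjusted p of 0.115 for the effect at 48 h minus that at 24 h.

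Signs turned only near 0. The first ANXA2 probe at 48 h was 0.043 with normexp and 0.029 with the authors' values, and its change of effect was -0.010 with scaling to the 75th percentile. With an array left out, that change ran from -0.040 to 0.088, that of the second ANXA2 probe from -0.10 to 0.13, and that of RND3 from -0.053 to 0.094. In the same fits, the second ANXA2 probe in siRND3 cells between the times ran from -0.13 to 0.093, and the second VLDLR probe at 24 h from -0.26 to 0.080.

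Over all probes, the 3350 called at 24 h became 1651 with the block and 1379 to 2574 with an array left out. At 48 h 5452 became 3505 with the block. For the effect at 48 h minus that at 24 h, 785 became 1300 with normexp, 0 with the block and 7 to 273 with an array left out. Between the times, 1023 in siControl cells became 1565 with normexp, 0 with the block and 73 to 905 with an array left out, and 2598 in siRND3 cells became 1 with the block and 1446 to 2394 with an array left out. In the pathway list, the 1 lower gene at 24 h became 3 with normexp, and 1 was higher with normexp. For the treatment effect over both times in the model of all 8 arrays, 3 were lower. At 48 h 7 lower became 3 with the block and 4 to 8 with an array left out, and 1 was higher with normexp and without siRND3 replicate 1, 2 or 3. With 1 array per treatment, 48 h values carry no replicate check of their own.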
